A study of Mus musculus with 6 samples.

Results

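The genes described here are 10 mouse genes for proteins that ride on plasma lipoproteins or travel with them: Apoa1, Apoa2, Apoa4, Apob, Apoc1, Apoc2, Apoe, Apom, Clu and Ttr. They were found in the count table by Ensembl gene ID and symbol, and all 10 were among its 43309 genes. The set was drawn up with earlier results of these libraries known, so members were in part selected on the fragment counts reported below, and their differences between groups are given as a description and not as a test. The table holds 6 TruSeq Stranded mRNA libraries, a kit that captures polyadenylated RNA and keeps its strand, each made from 2 µg of total RNA with 8 PCR cycles. RNA came from J1 (129SV) mouse embryonic stem cells (mESCs) kept on gelatin in medium with serum and without feeder cells. The control group holds 3 libraries from Zbtb24 wild-type (2lox/+) lines. The experimental group holds 3 libraries from lines labelled Zbtb24 knockout (1lox/1lox). Each library came from its own independently derived line, so each line is 1 clone, and differences between clones are part of the spread within a group.

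Apolipoproteins coat lipid particles, hold them in solution, dock them to receptors and switch lipases on or off. Liver, intestine and yolk sac endoderm are their classical sources, but apolipoprotein E and clusterin are also made by many cell types outside these tissues. Embryonic stem cells are not a classical site of lipoprotein secretion.

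Library totals ranged from 26987179 to 27754105 fragments in the control group, beside 25042261 to 28838924 in those labelled knockout. Zbtb24 itself, the targeted gene, went against its label. It was counted 510, 512 and 489 times in the control lines and 888, 925 and 1039 times in those labelled knockout (log2 fold change 0.99, standard error 0.050). The counts are per gene, so whether the fragments came from the targeted part of the gene was not tested. Whether the columns carry the right group names was not tested either, and every direction given here rests on those names. Of 16823 genes tested, 11697 (69.5%) were called at an adjusted p of 0.05 by the edgeR quasi-likelihood test, 5780 (34.4%) as higher and 5917 (35.2%) as lower in the libraries labelled knockout, and the groups did not overlap at 12028 (71.5%). All 14 pluripotency markers searched were counted between 1292 and 37653 times in every library.

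Apolipoprotein transcripts were a small part of these libraries, and their make-up differed between the groups. The 10 genes took 0.0224% ± 0.000956 of all fragments in the control group and 0.0124% ± 0.000331 in the group labelled knockout (SD, n = 3 each). Apoe alone gave 78.7% ± 0.762 of the apolipoprotein fragments in the control group and 69.9% ± 1.02 in the other, and Apoa2 gave 0.0872% ± 0.00738 and 10.1% ± 0.381. A gene entered the test where some library counted it 10 times or more, and 6 of the 10 genes did. Of these, 1 was called higher (Apoa2), 4 were called lower (Apoe, Apoc1, Clu and Apom) and 1 was not called (Apob). Beside these counts stand the 34.4% and 35.2% of all tested genes that were called higher and lower. The groups did not overlap at 5 of the 6, beside 71.5% of all tested genes. No reading is made from these shares, because the set was selected on the same contrast. Apoa2 entered the test only through the libraries in which it was high. In bulk RNA such as this, fewer cells that make a transcript and less of it per cell cannot be told apart.

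**Figure D1:**
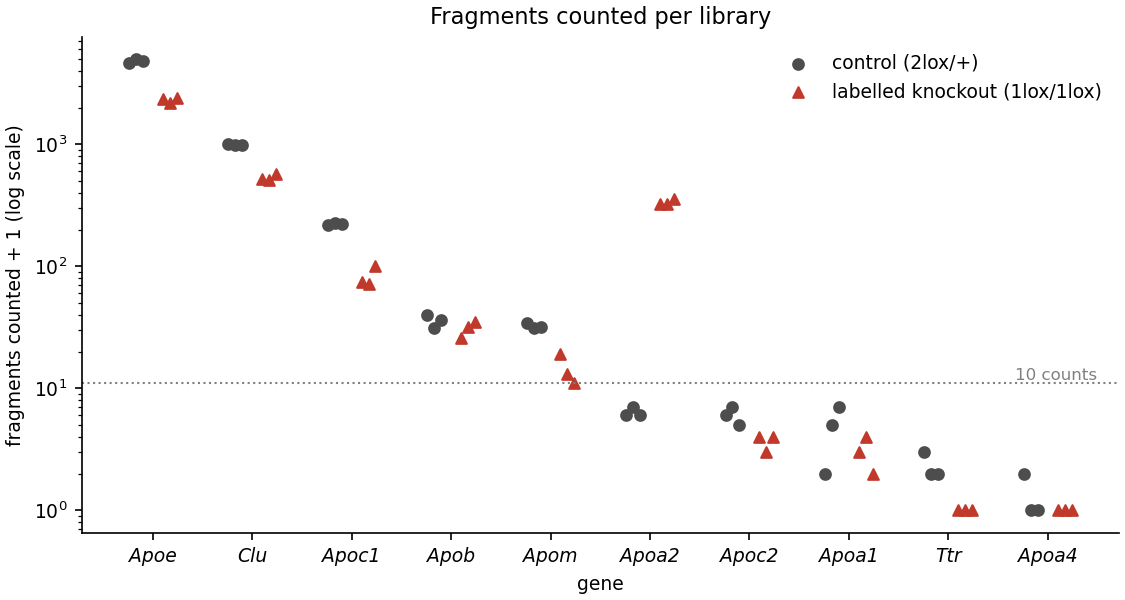
Fragments counted per library, plus 1, on a log axis for each of the 10 genes, with control libraries as circles and libraries labelled knockout as triangles. Apoa2 sits at 5 or 6 counts in the control lines and between 321 and 357 in the others, and 4 genes never exceed 6 counts.

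The gene that stood out was Apoa2, which codes for apolipoprotein A-II, after apolipoprotein A-I the main protein of high-density lipoprotein (HDL). Its counts were 5, 6 and 5 in the control lines and 321, 326 and 357 in the libraries labelled knockout. Every control library sat at the edge of detection, and every library of the other group was far above it. Scaled by library size with the trimmed mean of M-values (TMM), the means were 0.193 ± 0.0223 and 12.7 ± 0.480 cpm (counts scaled to a library of 1e6 fragments; SD, n = 3 each). The log2 fold change was 6.01, a fold change of 64.5, and it was above that of 99.9% of the genes tested. Leaving out 1 library at a time gave 5.95 to 6.11. The standard error computed for it, 0.17, is too small for so few control fragments. Counting error alone gave the pooled control level a 95% interval of 0.110 to 0.313 cpm. Per kilobase of exon, the scale on which genes can be set against each other, Apoa2 went from a level above 17.9% of the tested genes to one above 85.7% of them.

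Apoa1, the partner of Apoa2 on HDL particles, showed no such change at this depth. It was counted 1, 4 and 6 times in the control lines and 2, 3 and 1 times in the libraries labelled knockout, and the groups overlapped. It lies at chr9:46228580-46230466 (GRCm38, plus strand) in a cluster with Apoc3, an inhibitor of lipoprotein clearance, Apoa4, an intestinal chylomicron protein, and Apoa5, an activator of lipoprotein lipase. Apoa4 had 1 fragment in 1 control library and 0 elsewhere, as did Apoc3, and Apoa5 had 1 fragment in 1 library labelled knockout and 0 elsewhere. The whole cluster thus gave 2, 4 and 7 fragments in the control lines and 3, 3 and 1 in the others, too few at this depth to show a difference. Apoa4 shares its place with 2 genes on the opposite strand, Gm10680 and Gm47528, but the counting used strand.

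Apoe, which codes for the ligand that carries remnant particles to lipoprotein receptors, was the most abundant of the 10 genes in both groups. It was counted 4623, 4983 and 4822 times in the control lines and 2356, 2197 and 2386 times in the libraries labelled knockout. The lowest control library lay well above the highest of the other group. The means were 174 ± 8.68 and 88.0 ± 3.05 cpm, a log2 fold change of -0.98 (standard error 0.032), with -1.02 to -0.95 when 1 library was left out. Apoe remained among the more abundant transcripts, above 96.7% of the tested genes per kilobase of exon in the control group and above 91.9% in the other.

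Apoc1 lies beside Apoe on the same strand (chr7:19689481-19692660, with 6528 bp between their starts) and codes for a small protein that slows the uptake of particles carrying apolipoprotein E. Its counts were 218, 226 and 220 in the control lines and 74, 70 and 99 in the libraries labelled knockout. Here too the groups were well apart, with the third library labelled knockout above the other two of its group. Mean levels were 8.00 ± 0.239 and 3.06 ± 0.386 cpm, and the log2 fold change was -1.38 (standard error 0.11), with -1.49 to -1.32 when 1 library was left out. Both neighbours were lower. Each Apoc1 fragment was matched by 21.2 to 22.0 Apoe fragments in the control lines and by 24.1 to 31.8 in the libraries labelled knockout. The ratio did not overlap between the groups, but it rests on 70 to 99 Apoc1 fragments in each library labelled knockout. Its lowest value there, 24.1, came from the library with 99. Whether the proportion differed beyond counting error was not tested.

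Apoc2, the activator of lipoprotein lipase, belongs to the same cluster (chr7:19671579-19677941, minus strand) and starts 21247 bp from Apoe. It had 5, 6 and 4 fragments in the control lines and 3, 2 and 3 in the others, under the count at which a gene was tested. The groups did not overlap, but by a single fragment. Its exons overlap those of Gm44805 on the same strand in GENCODE M21, but that gene ID is not a row of the count table, so the fragments of both could not have been split by the counting. Apoc4, between Apoc1 and Apoc2, had 0, 1 and 1 fragments in the control lines and 2, 0 and 1 in the others.

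Clu (chr14:65968483-65981547, plus strand) codes for clusterin, also called apolipoprotein J, a secreted chaperone found on a part of HDL. It was counted 1011, 993 and 995 times in the control lines and 519, 511 and 568 times in the libraries labelled knockout. The 3 control libraries were nearly alike, and all lay far above the other group. The means were 36.1 ± 0.160 and 20.3 ± 0.456 cpm, a log2 fold change of -0.83 (standard error 0.047), with -0.85 to -0.82 when 1 library was left out. Clu and Apoe were the most counted of the 10 genes in the control group. For each Clu fragment there were 4.57 to 5.02 Apoe fragments in the control lines and 4.20 to 4.54 in the others. These ranges were apart only narrowly, so no difference in proportion is read from them.

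Apom (chr17:35128997-35132050, minus strand), whose product carries sphingosine phosphate on HDL, was a low-count gene. Its counts were 33, 30 and 31 in the control lines and 18, 12 and 10 in the libraries labelled knockout. All control libraries lay above the others, but the group labelled knockout was spread widely for its level. The means were 1.13 ± 0.0405 and 0.510 ± 0.169 cpm. The log2 fold change of -1.15 had a standard error of 0.27, and it moved between -1.43 and -0.93 when 1 library was left out.

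Apob (chr12:7977648-8016835, plus strand) codes for the structural protein of very-low-density lipoprotein (VLDL), low-density lipoprotein and chylomicrons, of which each particle holds 1 copy. It was counted 39, 30 and 35 times in the control lines and 25, 31 and 34 times in the libraries labelled knockout. The groups overlapped, and the log2 fold change was -0.13 with a standard error of 0.21. Spread over 13934 bp of exon, these counts are the lowest level per length of the 6 genes tested. Ttr codes for transthyretin, a carrier of thyroid hormone and of retinol-binding protein. It had 2, 1 and 1 fragments in the control lines and 0 in each library labelled knockout. A count of 0 over those 3 libraries allows a level of up to 0.0380 cpm, from a floor of 3 counts over the group and for counting error only. The control mean of 0.0480 ± 0.0200 cpm rests on 4 fragments, so no fold is given.

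**Figure D2:**
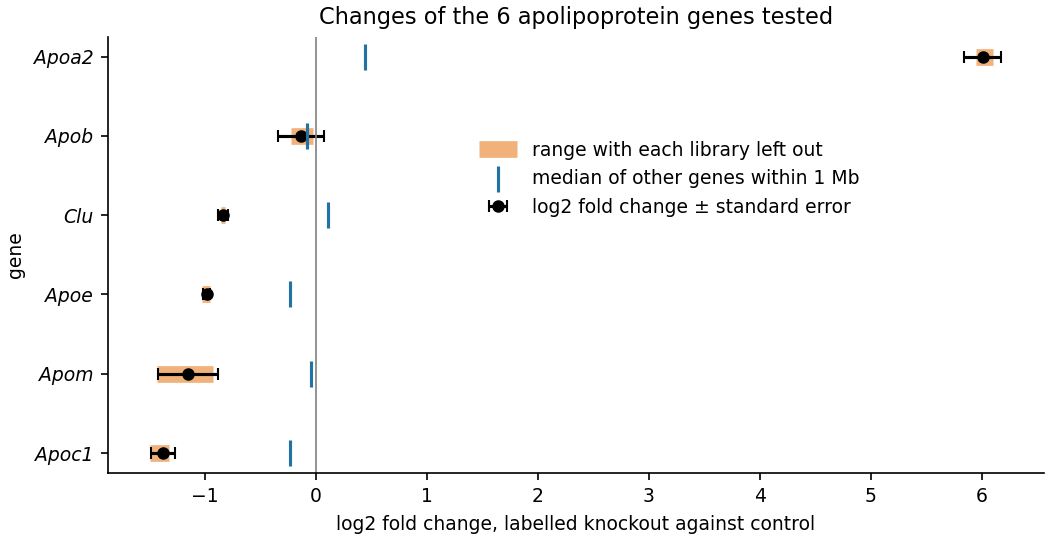
Log2 fold change of the libraries labelled knockout against the control libraries for the 6 genes tested (points; bars are standard errors), with the range when each library was left out (shaded) and the median of the other tested genes within 1 Mb (vertical ticks). Apoa2 is at 6.01, with a bar too narrow for its few control fragments. The 4 genes lower in the libraries labelled knockout lie between -1.38 and -0.83, and Apob is at -0.13.

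Set against each other per kilobase of exon, as TMM-scaled cpm per kilobase (FPKM), the order of the genes was not the same in the groups. In the control group Apoe led with 81.3 ± 4.06 FPKM. Apoc1 at 10.7 ± 0.322 and Clu at 10.5 ± 0.0464 came next, and their libraries overlapped. Below them stood Apom at 1.12 ± 0.0400 and Apoa2 at 0.359 ± 0.0415, and Apoc2, Apoa1, Apob, Ttr and Apoa4 were all lower still, with libraries of Apoa1 and Apob overlapping. In the group labelled knockout Apoe still led with 41.2 ± 1.43, but Apoa2 was now next at 23.7 ± 0.894, ahead of Clu at 5.89 ± 0.133 and Apoc1 at 4.11 ± 0.519. Apom followed at 0.504 ± 0.167. The Apoa2 level was 0.413% to 0.479% of the Apoe level in the control lines and 54.2% to 59.6% of it in the libraries labelled knockout. Length matters here, since Apoe and Clu have short and long annotated transcripts: with the longest transcript in place of all exons joined, Apoe was at 123 and 62.5 FPKM, and Clu, at 19.9 and 11.2, stood above Apoc1, at 15.0 and 5.75, in both groups.

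**Figure D3:**
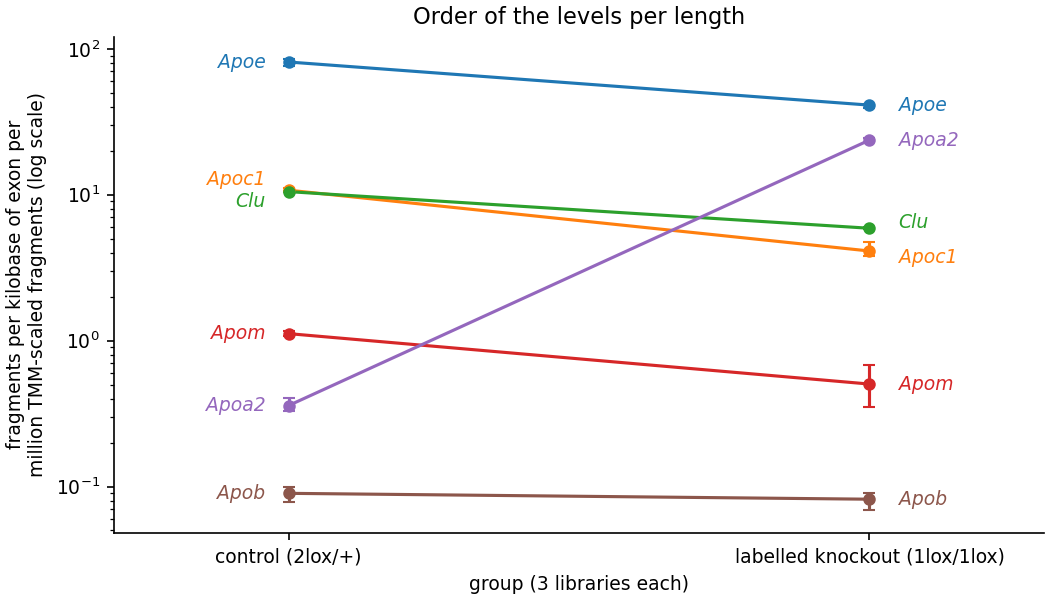
Mean level per length of the 6 genes tested in each group, on a log axis (bars span the 3 libraries). The lines of Apoe, Apoc1, Clu and Apom run downward, and that of Apoa2 crosses those of Apom, Apoc1 and Clu on its way from 0.359 to 23.7 FPKM.

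The sequences just before the start sites of Apoa2 and Apoe are shown because these genes have the highest levels per length of the 10 in the libraries labelled knockout and differed between the groups in opposite directions. Each is the 250 bases upstream of the RefSeq start (GRCm38.p6), written 5′ to 3′ on the strand of the gene, and both starts are also the outermost starts in GENCODE. Apoa2 lies at chr1:171225054-171226379 on the plus strand and Apoe at chr7:19696109-19699188 on the minus strand. Capitals mark matches to the motifs listed after the sequences.
Apoa2, chr1:171224804-171225053, plus strand: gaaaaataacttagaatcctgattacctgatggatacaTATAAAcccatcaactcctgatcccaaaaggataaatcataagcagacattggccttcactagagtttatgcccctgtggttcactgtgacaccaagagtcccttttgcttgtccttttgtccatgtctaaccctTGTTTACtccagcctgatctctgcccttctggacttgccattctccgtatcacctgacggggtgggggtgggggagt
Apoe, chr7:19699189-19699438, minus strand: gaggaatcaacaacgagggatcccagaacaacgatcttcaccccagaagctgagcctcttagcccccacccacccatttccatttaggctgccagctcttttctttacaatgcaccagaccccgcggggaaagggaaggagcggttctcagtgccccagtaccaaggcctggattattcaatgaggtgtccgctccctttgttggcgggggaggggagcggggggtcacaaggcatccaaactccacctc
The Apoa2 sequence has 46.4% G and C and 2 CpG, and the Apoe sequence 57.2% and 8 CpG, beside medians of 52.4% and 6 over 32851 RefSeq promoters. In the Apoa2 sequence the capitals are TATAAA, the letters of a TATA box, at 212 bases before the start and TGTTTAC, a core recognised by FOXA factors, at 77 bases before it. Distance from the start was not part of a match, so TATAAA here is not taken as a working TATA box. The Apoe sequence holds none of the motifs searched.

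In all, 9 motifs were searched on both strands, from 250 bases before to 50 after each start, with 7 of the 10 genes matched to 10 promoter entries. Shares of all are per promoter entry, whereas Apoa2 and Apoe have multiple entries each and so multiple chances of a match. TATAAA was found at Apoa2, Apob and an inner start of Apoe, and in 13.6% of all 32851 promoters. TGTTTAC was found at Apoa2 and an inner start of Apoe, and in 3.65% of all. The nuclear receptor half-site AGGTCA was found at Apoc2 and at a second Apoa2 start 3490 bp upstream (16.3% of all), and the HNF1 half-site GTTAAT at Apoc2 and an inner start of Apoe (7.1% of all). The HNF4 core CAAAGTCCA (0.475% of all), the GATA site AGATAA (11.2%), the C/EBP site TTGCGCAA (0.183%), the sterol regulatory element TCACCCCAC (0.551%) and the ZBTB24 core CAGGACCT (1.99%) were found at none of the 7. A match is a run of letters and not evidence of binding, and an absent match says only that these letters are not in this window.

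Genes around Apoa2 moved far less than Apoa2 did. The 41 other tested genes within 1 Mb with a mean count of 10 or more had a median log2 fold change of 0.44 and a range of -1.74 to 1.78, with 22 called higher and 9 lower, so Apoa2 stood 5.57 above its neighbourhood. The median of the 979 such genes of chromosome 1 was 0.50, against -0.0004 over all genes tested. This shift was in every library labelled knockout: the median log2 ratio of chromosome 1 genes to the control mean, on the log2(cpm + 1) scale, was 0.40, 0.41 and 0.40, beside -0.01 in each for genes of all other chromosomes. Nearest to Apoa2, Tomm40l (0.56, edgeR adjusted p = 1.85e-15) rose by close to the chromosome median. Nr1i3 had 3, 5 and 6 fragments in the control lines and 7, 10 and 9 in the others and was not called (edgeR adjusted p = 0.0869). Fcer1g, with 5, 4 and 2 against 7, 4 and 10, was not called either (edgeR adjusted p = 0.12).

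Around Apoe the picture differed. By the same count minimum, the median log2 fold change of the 51 other genes within 1 Mb was -0.23, with 11 called higher and 28 lower and a range of -2.80 to 0.51. Apoe stood 0.75 below that median and Apoc1 1.15 below it. Tomm40, next to Apoe, was slightly higher at 0.14 (edgeR adjusted p = 9.98e-06), while Nectin2, just beyond it, fell by 0.69 on the log2 scale (edgeR adjusted p = 2.04e-25) and Clptm1, on the far side of Apoc2, fell by 0.48 on the log2 scale (edgeR adjusted p = 9.19e-20). Clu was 0.95 below the median of 20 genes and Apom 1.11 below that of 91 genes. Apob (-0.13) was close to the median of its 9 neighbours, -0.08.

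**Figure D4:**
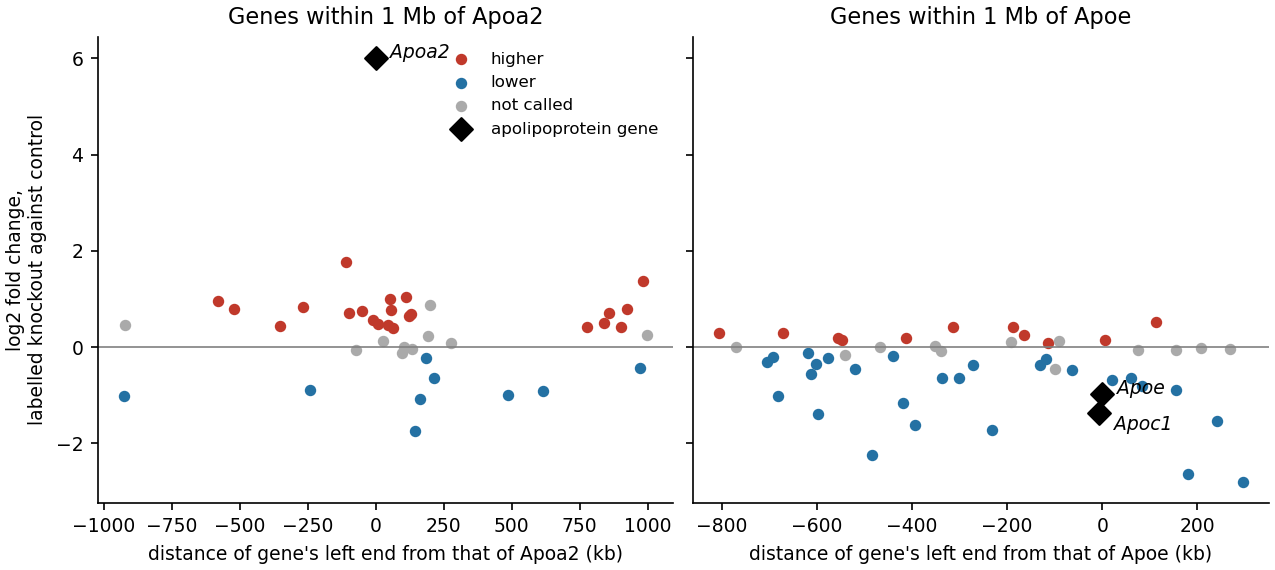
Log2 fold change of each tested gene within 1 Mb of Apoa2 (left) and of Apoe (right) against its distance in kilobases, coloured by the call, with apolipoprotein genes as diamonds (mean count of 10 or more). No other gene near Apoa2 exceeds 1.78, whereas Apoe and Apoc1 lie inside the range of their neighbours, -2.80 to 0.51.

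The wider set of genes for lipoprotein metabolism was taken from 6 lists by role. Of 109 genes listed, 108 were in the table and 85 were tested, of which 22 were higher, 39 lower and 24 not called. This is 71.8% called, beside 69.5% of all genes tested, and the median log2 fold change was -0.17. Nothing particular to these lists is read from a share so close to the background.

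Among other apolipoproteins and their partners, 9 of 17 genes in the table were tested, with 3 higher and 3 lower. This is 66.7% called, beside 69.5% of all tested genes, and the median log2 fold change was -0.12. Rbp4, the retinol carrier that circulates bound to transthyretin, rose from 37, 44 and 41 counts to 71, 69 and 76 (log2 fold change 0.90, edgeR adjusted p = 2.2e-06), while Ttr was near 0 throughout. Apod, a lipocalin, rose from 102, 116 and 105 counts to 168, 112 and 179 (0.58, edgeR adjusted p = 2.12e-05). The lowest library labelled knockout lay just above the control lines after scaling, at 4.55 cpm against 3.62 to 4.22. Pon2, a paraoxonase of the cell interior, fell from 252, 248 and 288 to 55, 41 and 65 (-2.22, edgeR adjusted p = 1.39e-22), and Apobr, a receptor for particles with apolipoprotein B, fell by 0.83 on the log2 scale. Apoh and Pon1 were at 0 in every library.

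Particle assembly was mixed. Of 17 genes tested, 6 were higher and 7 lower (76.5% called, beside 69.5% of all tested genes, median -0.11). Mttp, the transfer protein that loads lipid onto apolipoprotein B, rose from 138, 143 and 127 counts to 245, 243 and 291 (log2 fold change 1.01, standard error 0.088, edgeR adjusted p = 3.07e-14), beside an Apob that did not pass the test. Dgat2, an enzyme of triglyceride synthesis, rose by 0.35 on the log2 scale. Plin2, which coats lipid droplets, fell by 0.84 on the log2 scale, and P4hb, the protein disulfide isomerase that partners Mttp, fell by 0.59 on the log2 scale.

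Of the receptors and their helpers, 19 were tested, and 5 were higher and 7 lower (63.2% called, beside 69.5% of all tested genes, median -0.16). The largest fall was that of Lrp2, or megalin, an endocytic receptor for apolipoproteins and retinol-binding protein, from 3626, 3263 and 3447 counts to 603, 656 and 710 (log2 fold change -2.32, standard error 0.040, edgeR adjusted p = 2.97e-42). Lrpap1, a chaperone of lipoprotein receptors, fell from 3369, 3502 and 3315 to 1346, 1365 and 1543 (-1.19, edgeR adjusted p = 2.34e-33). Cubn, the partner of Lrp2 on the cell surface, rose by 0.50 and Lrp1 by 0.47 on the log2 scale.

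Cholesterol transporters had 1 gene higher and 3 lower of 7 tested (57.1% called, beside 69.5% of all tested genes, median -0.11). Abca1, which loads cholesterol onto apolipoproteins A-I and E, fell from 386, 327 and 319 counts to 112, 104 and 113 (log2 fold change -1.57, standard error 0.090, edgeR adjusted p = 6.54e-21). Abca7, its close relative, fell by 0.72 on the log2 scale, and Npc1, which moves cholesterol out of lysosomes, rose by 0.23. Of 9 lipases and remodelling proteins tested, 4 were higher and 4 lower (88.9% called, beside the same 69.5%, median 0.15). Lpl, the lipase that apolipoprotein C-II activates, rose by 0.64 and its inhibitor Angptl4 by 0.39 on the log2 scale, while the endothelial lipase gene Lipg fell by 1.04 and the phospholipid transfer protein gene Pltp by 0.28.

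Of transcription factors known to act at apolipoprotein promoters, 24 were tested, and 3 were higher, 15 lower and 6 not called (75.0% called, beside 69.5% of all tested genes, of which 35.2% were lower; median log2 fold change -0.42). Nr5a2, a nuclear receptor of embryonic stem cells and liver, rose from 1856, 1763 and 1794 counts to 4442, 4433 and 5056 (1.44, standard error 0.030, edgeR adjusted p = 1.12e-38). Rora, an orphan nuclear receptor, rose by 0.91 on the log2 scale, while Nr2f6 fell by 1.01 and Rxra, the common partner of many nuclear receptors, by 0.51. Hnf4a, the best-known regulator of apolipoprotein genes in liver, was low and not called, at 29, 25 and 24 counts against 30, 15 and 21 (log2 fold change -0.17, edgeR adjusted p = 0.569, named after its values were seen). Foxa1, Foxa2 and Foxa3, also low, were called lower, at log2 fold changes of -0.67, -1.99 and -1.01 (named after their values were seen). Whether FOXA factors act at Apoa2 in these cells was not tested.

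**Figure D5:**
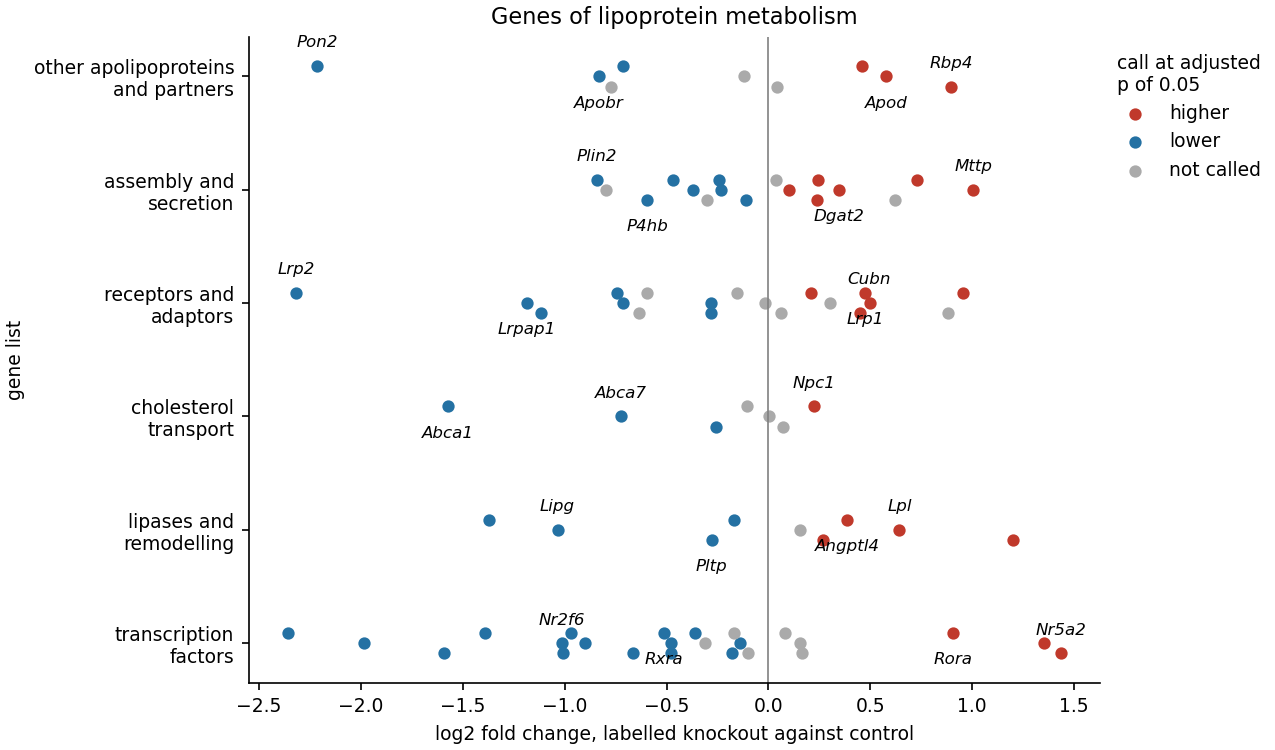
Log2 fold change of each tested gene of the 6 lists of lipoprotein metabolism, coloured by the call, with up to 4 genes per list named by a rule of size and count. Lrp2 at -2.32 and Nr5a2 at 1.44 are the lowest and the highest of the named genes.

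Markers of the cell types that could bring apolipoprotein transcripts were measured beside these results. Of 17 hepatocyte markers, 4 were tested. Called by edgeR or DESeq2 were 0 of these, beside 69.5% of all tested genes called by edgeR, and 0 had an unadjusted p under 0.05 in either. These 4 genes averaged only 7.0 to 34.2 counts, so little could be called among them. The summed level of the list was 3.86 to 4.44 cpm in the control lines and 3.54 to 4.17 in the others. Alb had at most 1 fragment and Afp at most 3 in any library, and Serpina1a and Fgb were at 0. Of 29 extraembryonic endoderm markers, 27 were tested, 8 were higher and 12 lower (74.1% called, beside 69.5% of all tested genes), and their sum was 1567 to 1576 cpm against 1297 to 1324. Within that list Sox7 rose by 1.24 on the log2 scale, whereas Krt8 and Krt18, keratins also found in trophoblast, fell by 4.41 and 4.19. The sum rests mostly on a few abundant genes that moved both ways, so it does not give the direction of the whole list. Mean levels fell from 226 to 10.6 cpm for Krt8, from 118 to 6.47 for Krt18 and from 104 to 31.7 for Col4a1. They rose from 385 to 487 cpm for Lamc1 and from 385 to 428 for Sparc. No marker of that list was at 0 in a whole group. The part of hepatocytes or extraembryonic endoderm in the apolipoprotein differences was not tested.

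Fibroblasts, trophoblast and macrophages can make Apoe or Clu, and their markers were counted beside the 35.2% of all tested genes that were lower and the 34.4% that were higher. Of 8 fibroblast markers tested, 6 were lower and 1 higher, and their sum was 78.5 to 83.2 cpm in the control lines and 41.3 to 44.4 in the others, with Lum at 0. Col1a1 fell by 3.39 and Col1a2 by 3.15 on the log2 scale, while Fbln1 rose by 0.59. Of 9 trophoblast markers tested, 6 were lower and 2 higher (sum 88.5 to 93.1 against 82.8 to 84.3 cpm), and Prl3d1 was at 1 fragment in each control library and 0 in the others. Of 3 macrophage markers tested, 2 were lower (sum 20.97 to 23.1 against 9.63 to 10.7 cpm), and the defining markers Adgre1, Lyz2 and Tyrobp were at 0 in every library. Most pluripotency markers went the other way, with 11 of 14 higher and a sum of 5907 to 6023 against 7537 to 7593 cpm. The other 3 were lower, Zfp42 and Lin28a among them. The part of these cell types in the apolipoprotein differences was not tested.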

How the data were processed

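The authors removed rRNA reads with Bowtie2 (2.1.0), mapped the others to mm10 with TopHat (2.0.10) and counted fragments per GENCODE M4 gene with htseq-count (0.6.1, union mode, by strand), discarding fragments in several genes or at several places. What they deposited are raw counts per gene, with no normalization. The 10 genes, the lists and the motifs were chosen with earlier results of these data known. Genes that reached 10 counts in any of the 6 libraries (16823 of 43309) were fitted in R (4.3.3) with the edgeR quasi-likelihood test (4.0.16) after TMM scaling, on group alone, with Benjamini-Hochberg adjustment over all of them, and called at 0.05. The fit was tested on simulated data. Standard errors were computed from the fit, as the absolute log2 fold change over the square root of the F statistic. They can be too small where a group has few fragments, as at Apoa2. Lengths and places are from GENCODE M21 on GRCm38, which differs from the release counted, and 42425 gene IDs matched a symbol. Levels per length (FPKM) divide TMM-scaled cpm by the joined length of all exons. With 3 libraries a group, p-values measure the spread between the libraries of a group. The study describes independently derived lines for its low-input libraries, and whether the libraries used here came from separate lines was not tested. The spread between libraries was small. Pairs of libraries in a group differed by 1.14 to 2.24 in chi-square per gene, the lowest close to counting error alone. Named list genes were the 2 largest rises and 2 largest falls per list among called genes averaging 50 counts or more, and the 3 nearest tested genes on each side of a member could be named. The alternatives were DESeq2 (1.42.0), the edgeR exact test, other scalings, filters and thresholds, each library left out, a replicate block, gene length and window size. The SMARTer and xenograft libraries of the study were not used here, and some genes are not reported here.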

Additional observations from a re-analysis of the deposited data

How the results depend on the processing

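No apolipoprotein gene changed direction or side of the threshold in the 14 refits (DESeq2, the edgeR exact test, 3 other scalings, 2 other filters, the replicate block and 6 fits with 1 library left out). Over them the log2 fold change of Apoa2 was 5.95 to 6.11, of Apoe -1.03 to -0.95, of Clu -0.88 to -0.82, of Apoc1 -1.49 to -1.32, of Apom -1.43 to -0.93 and of Apob -0.22 to -0.02. With 1 library left out, 11059 to 11304 genes, 5 apolipoprotein genes and 57 to 60 pathway genes were called, beside 61 pathway genes with all libraries. DESeq2 called 10326, 5 and 56. A threshold of 1 on the absolute log2 fold change left 2865 genes, 3 apolipoprotein genes (Apoa2, Apoc1 and Apom) and 17 pathway genes, since smaller changes are dropped by its construction. The longest transcript in place of all exons moved Apoe to 123 FPKM in the control group and 62.5 in the other. In the 250 bases before the start alone, the FOXA core was found at 1 gene. Replicate numbers did not pair the lines: deviations of same-numbered libraries correlated at 0.014, 0.074 and 0.015 over 12360 genes, not every library correlated best with its own number, and with a replicate block 11801 genes, 5 apolipoprotein genes and 61 pathway genes were called. Apoa1, Apoa4, Apoc2 and Ttr, with at most 6 counts, are limited by depth, and none of them was called without the filter.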

Other observations

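Over the 6 libraries, the genes whose log2(cpm + 1) followed that of Apoa2 most closely were Noc2l, Esrrb and Olig2 (Pearson r of 0.9999 each, among genes averaging 100 counts or more). The 6 libraries form 2 groups, and 1176 of 11111 genes (10.6%) reached an r of 0.99, so this likeness is that of any gene that separates the groups with little spread. Esrrb, a nuclear receptor of the pluripotency network, was counted 8158, 8073 and 7962 times in the control lines and 17028, 16198 and 18274 times in the libraries labelled knockout (log2 fold change 1.16). Olig2, a factor of neural progenitors, resembled Apoa2 in size as well, with 1, 2 and 2 counts against 269, 278 and 313 (log2 fold change 7.39). Of the 7 neural markers tested it was 1 of 4 that were higher, while 3 were lower, beside 34.4% and 35.2% of all tested genes. The summed level of that list was 297 to 304 cpm in the control lines and 291 to 299 in the others.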
